A study of Mus musculus with 12 samples.

Results

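The T-cell receptor complex and the proteins that carry its first signals were followed in the spleens of mice fed 3 diets. The 9 genes listed for it were chosen by name, with earlier results of these data known, and 8 had a probe under their symbol: Cd3d, Cd3e, Cd3g, Cd247, Zap70, Lat, Rasgrp1 and Lcp2. No probe carried the symbol Lck in the probe annotation used, and that gene is not analysed here. The 8 genes had 18 of the 45281 probes on the array, and each gene is given by its probe with the highest mean over the mice. In none of the 8 did the difference between diets pass the test over all probes. Rasgrp1 came closest, with all 4 HFD-ED mice below every other mouse.

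Each of 12 spleens was hybridized to its own Illumina MouseWG-6 v2.0 array, from male C57Bl/6J mice with 4 mice on each diet. The mice were bought at 6 weeks of age, acclimatized for 3 weeks and fed for 8 weeks. HFD-ED was a high-fat diet with 15 g fat per 100 g, made up of 10 g coconut oil, 3 g corn oil and 2 g of an oil rich in the n-3 fatty acids EPA and DHA. HFD-CO was a high-fat diet with 15 g fat per 100 g, made up of 10 g coconut oil and 5 g corn oil, and both high-fat diets held 1 g cholesterol per 100 g. Control feed had 5 g fat per 100 g, with 2.5 g each of corn oil and coconut oil, and no added cholesterol. The authors chose the arrayed mice on body weight and on triglyceride and cholesterol in plasma, and 1 protocol text names skeletal muscle where titles and tissue labels name spleen. Mice are named by their replicate numbers, which were not taken to link mice across diets.

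The T-cell receptor recognizes antigen through its alpha and beta chains, which have no signaling tail of their own. The CD3 gamma, delta and epsilon chains and the zeta chain encoded by Cd247 carry the tyrosine motifs that kinases of the Src family phosphorylate. The kinase ZAP-70 docks there and phosphorylates the scaffold proteins LAT and SLP-76, and the signal then passes to calcium release, protein kinase C and Ras. In the spleen, these genes are used chiefly by T cells of the white pulp, but they are not restricted to T cells. For example, Lcp2 is also used by platelets and myeloid cells, and Cd247 and Zap70 by natural killer cells. In whole spleen, fewer T cells and less RNA per T cell cannot be told apart.

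All levels below are the normalized values on a scale close to log2, and differences are between means on that scale. The transformation compresses differences of dim probes, and 75.2% of all probes had a mean under 7.5. Arrays of the same diet correlated at 0.971 to 0.995 over all probes, and no arrays were identical. The number of arrays limits the precision.

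The promoters of 4 genes are shown because these genes hold the differences that separated diets without overlap (Rasgrp1, Cd3g and Lcp2) or lie head to head with such a gene (Cd3d). Each run is the 250 bases before a RefSeq transcript start, 5′ to 3′ on the strand of the gene, with matches to any of 3 motifs in capitals.
Rasgrp1 promoter (GRCm38.p6, chr2:117342878-117343127, minus strand): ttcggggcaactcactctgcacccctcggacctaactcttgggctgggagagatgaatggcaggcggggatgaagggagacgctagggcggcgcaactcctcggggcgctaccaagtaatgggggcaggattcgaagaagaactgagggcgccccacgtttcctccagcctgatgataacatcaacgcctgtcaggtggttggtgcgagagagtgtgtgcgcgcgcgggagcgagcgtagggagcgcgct
Cd3g promoter (GRCm38.p6, chr9:44980432-44980681, minus strand): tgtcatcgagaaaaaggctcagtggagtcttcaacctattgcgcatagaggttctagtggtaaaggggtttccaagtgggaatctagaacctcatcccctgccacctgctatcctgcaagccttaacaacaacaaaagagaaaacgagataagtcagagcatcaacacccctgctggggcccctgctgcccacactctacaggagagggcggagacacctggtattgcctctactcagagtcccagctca
Cd3d promoter (GRCm38.p6, chr9:44981536-44981785, plus strand): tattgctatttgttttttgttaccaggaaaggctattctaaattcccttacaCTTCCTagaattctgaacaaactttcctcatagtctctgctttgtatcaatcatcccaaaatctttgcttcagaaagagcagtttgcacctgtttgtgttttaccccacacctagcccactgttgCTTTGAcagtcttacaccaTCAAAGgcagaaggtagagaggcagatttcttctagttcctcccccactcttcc
Lcp2 promoter (GRCm38.p6, chr11:34046678-34046927, plus strand): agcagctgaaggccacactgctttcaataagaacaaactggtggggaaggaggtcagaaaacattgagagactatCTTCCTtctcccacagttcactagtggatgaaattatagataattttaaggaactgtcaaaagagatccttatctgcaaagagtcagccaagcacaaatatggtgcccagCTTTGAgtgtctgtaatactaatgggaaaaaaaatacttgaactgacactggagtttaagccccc
The motifs were TGTGGT for RUNX factors, CTTTGA for TCF/LEF factors and AGGAAG for ETS factors, each searched on both strands, so that CTTCCT and TCAAAG also count. No match overlapped another. The last 17 bases of the Cd3d run lie inside the gene as annotated, which has an earlier start than the one this window ends at. The Cd3d window held 2 TCF/LEF matches and 1 ETS match, the Lcp2 window held 1 of each, and the windows of Rasgrp1 and Cd3g held none of the 3. Over 10 RefSeq windows of the measured genes, 7 held the ETS letters, 3 the TCF/LEF letters and 1 the RUNX letters, against 29.5%, 13.8% and 14.05% of all 32851 windows. A match is a description of the letters only.

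Cd3g, Cd3d and Cd3e lie together on chromosome 9 (GRCm38.p6) in a span of 40092 bases. Between the annotated starts of Cd3g and Cd3d lie 1337 bases, and the genes are read in opposite directions. The other members lie elsewhere: Zap70 and Cd247 on chromosome 1, Rasgrp1 on chromosome 2, Lat on chromosome 7 and Lcp2 on chromosome 11.

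Rasgrp1, the exchange factor that loads Ras with GTP when diacylglycerol is made below the receptor, was lowest in the HFD-ED mice. Its level was 10.82, 10.76, 10.63 and 10.91 in the HFD-ED mice, 11.05, 11.08, 11.07 and 11.52 in the HFD-CO mice, and 11.28, 11.27, 11.16 and 11.19 in the control mice. The 4 HFD-ED mice lay below all 8 others, while the HFD-CO and control mice overlapped and HFD-CO mouse 4 stood above everyone. The means were 10.78 ± 0.12 with HFD-ED, 11.18 ± 0.23 with HFD-CO and 11.23 ± 0.058 with control (SD, n = 4 each). Against control, the HFD-ED difference was -0.44 (SE 0.099), a ratio of 0.736 (limma, adjusted p = 0.252 over all probes). HFD-ED minus HFD-CO was -0.40 (SE 0.099), a ratio of 0.758 (adjusted p = 0.345). The exact two-sided permutation p was 0.0286 in both, the smallest that 4 mice against 4 allow. HFD-CO minus control was -0.04 (SE 0.099), within the spread of the HFD-CO mice.

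The other probes of Rasgrp1 sat near the lower end of the scale. The second probe had 7.41, 7.39, 7.41 and 7.52 in the HFD-ED mice, 7.51, 7.72, 7.51 and 7.70 in the HFD-CO mice, and 7.61, 7.56, 7.51 and 7.58 in the control mice. There, 3 of the 4 HFD-ED mice were below all mice of the other diets, and the difference was -0.13 against control and -0.18 against HFD-CO. Without HFD-ED mouse 3, the differences of the brightest probe were -0.39 and -0.35.

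The CD3 chains form the signaling dimers of the receptor, and Cd3g showed the largest difference among them in HFD-ED against HFD-CO. Cd3g, the gamma chain, had 10.49, 10.42, 9.87 and 10.28 in the HFD-ED mice, 10.75, 10.60, 10.68 and 10.78 in the HFD-CO mice, and 10.28, 10.70, 10.64 and 10.74 in the control mice. All HFD-ED mice were below all HFD-CO mice, whereas control mouse 1 lay among the HFD-ED mice. HFD-ED minus HFD-CO was -0.44 (SE 0.13, adjusted p = 0.444, exact permutation p = 0.0286), and HFD-ED minus control was -0.32 (SE 0.13, adjusted p = 0.451, exact permutation p = 0.0857). The means were 10.27 ± 0.28 with HFD-ED, 10.70 ± 0.082 with HFD-CO and 10.59 ± 0.21 with control (SD, n = 4 each). HFD-CO and control mice overlapped, with a difference of 0.11 (SE 0.13). Without HFD-ED mouse 3 the Cd3g differences were -0.30 against HFD-CO and -0.19 against control.

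Cd3d, the delta chain that pairs with CD3 epsilon, had 10.44, 10.43, 10.03 and 10.56 in the HFD-ED mice, 10.73, 10.61, 10.40 and 10.95 in the HFD-CO mice, and 10.59, 10.46, 10.78 and 10.72 in the control mice. Of the HFD-ED mice, 3 lay below all control mice and 1 below all HFD-CO mice, so that the groups overlapped in both comparisons. HFD-ED averaged 10.36 ± 0.23, HFD-CO 10.67 ± 0.23 and control 10.63 ± 0.14 (SD, n = 4 each). The difference from control was -0.27 (SE 0.13, adjusted p = 0.526, exact permutation p = 0.0571). HFD-ED minus HFD-CO was -0.31 (SE 0.13, adjusted p = 0.519, exact permutation p = 0.114). Without HFD-ED mouse 3 the Cd3d differences were -0.16 against control and -0.20 against HFD-CO.

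Cd3e, the epsilon chain shared by both CD3 dimers, did not follow its neighbours in every mouse. It had 10.41, 10.35, 9.51 and 10.01 in the HFD-ED mice, 10.30, 10.62, 10.03 and 10.24 in the HFD-CO mice, and 10.002, 10.14, 10.18 and 10.16 in the control mice. HFD-ED mice 1 and 2 were above all control mice and mouse 3 was below all of them. The means were 10.07 ± 0.41 with HFD-ED, 10.30 ± 0.24 with HFD-CO and 10.12 ± 0.081 with control (SD, n = 4 each). HFD-ED minus control was -0.05 (SE 0.18, adjusted p = 0.963), and it was 0.14 without mouse 3. HFD-ED minus HFD-CO was -0.23 (SE 0.18, adjusted p = 0.764), and -0.04 without mouse 3. A second Cd3e probe gave differences of -0.13 and -0.32.

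Cd247, which encodes the zeta chain, lay near the lower end of the scale, where differences are compressed. It had 7.58, 7.5001, 7.41 and 7.51 in the HFD-ED mice, 7.54, 7.69, 7.52 and 7.51 in the HFD-CO mice, and 7.38, 7.44, 7.41 and 7.59 in the control mice. The means were 7.499 ± 0.068 with HFD-ED, 7.57 ± 0.080 with HFD-CO and 7.45 ± 0.092 with control (SD, n = 4 each). The groups overlapped in all comparisons, and Cd247 was the 1 gene of the 8 with a higher mean in HFD-ED than in control mice (0.05, SE 0.053, adjusted p = 0.846). HFD-ED minus HFD-CO was -0.07 (SE 0.053, adjusted p = 0.757). The dimmer Cd247 probes gave 0.02 and -0.02 against control, so that the sign differed between probes, and -0.03 and -0.06 against HFD-CO.

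**Figure D1:**
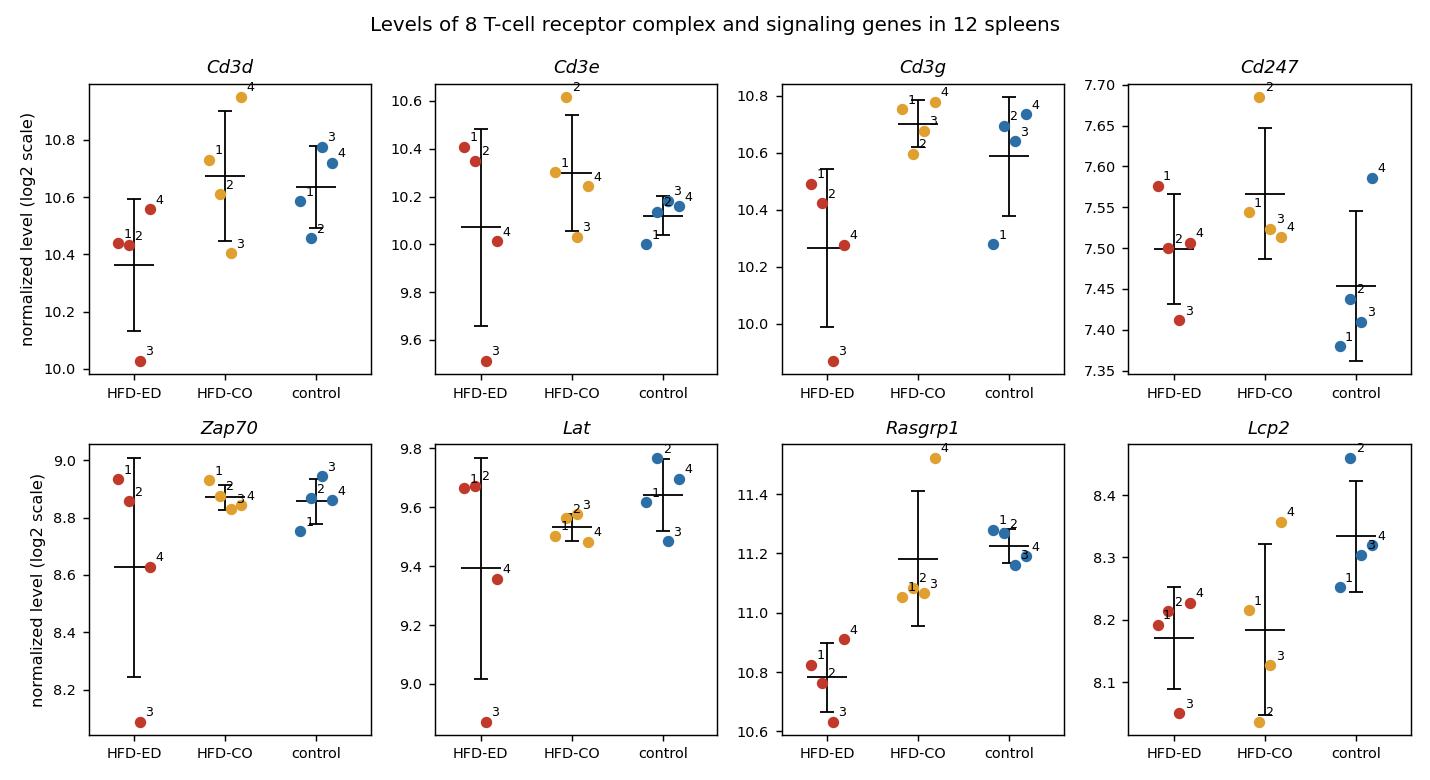
Normalized level (log2 scale) of the 8 genes in each mouse, with HFD-ED, HFD-CO and control from left to right. Points are mice with their replicate numbers, the horizontal line is the mean and the bar is 1 SD (n = 4 mice). The vertical scale differs between panels and does not start at 0. HFD-ED mouse 3 is lowest of the 12 mice in 6 genes, and the HFD-ED mice of Rasgrp1, at 10.63 to 10.91, do not overlap the other diets.

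Zap70, the kinase that binds the phosphorylated chains, was held in a narrow range in all but 2 mice on its brightest probe. It had 8.93, 8.86, 8.09 and 8.63 in the HFD-ED mice, 8.93, 8.88, 8.83 and 8.84 in the HFD-CO mice, and 8.75, 8.87, 8.95 and 8.86 in the control mice. HFD-ED mice 3 and 4 were below all others, and HFD-ED mice 1 and 2 lay within the range of the control mice. The means were 8.63 ± 0.38 with HFD-ED, 8.87 ± 0.045 with HFD-CO and 8.86 ± 0.079 with control (SD, n = 4 each). HFD-ED minus control was -0.23 (SE 0.15, adjusted p = 0.654) and HFD-ED minus HFD-CO was -0.24 (SE 0.15, adjusted p = 0.660). Without mouse 3 these were -0.05 and -0.06. A second Zap70 probe gave -0.20 and -0.18. On that probe, 3 of the 4 HFD-ED mice were below all mice of the other diets, and the control mice ran from 8.05 to 8.32.

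Lat, the membrane scaffold that ZAP-70 phosphorylates, split the HFD-ED mice in the same way as the brightest Zap70 probe. It had 9.67, 9.67, 8.87 and 9.36 in the HFD-ED mice, 9.50, 9.56, 9.58 and 9.48 in the HFD-CO mice, and 9.62, 9.77, 9.49 and 9.70 in the control mice. HFD-ED mice 1 and 2 were above all HFD-CO mice, and mice 3 and 4 were below all HFD-CO and control mice. The means were 9.39 ± 0.38 with HFD-ED, 9.53 ± 0.045 with HFD-CO and 9.64 ± 0.12 with control (SD, n = 4 each). Lat in HFD-ED mice minus control was -0.25 (SE 0.15, adjusted p = 0.622), and -0.08 without mouse 3. HFD-ED minus HFD-CO was -0.14 (SE 0.15, adjusted p = 0.845), and 0.03 without mouse 3.

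Lcp2 encodes SLP-76, the adaptor that joins LAT to phospholipase C and to the cytoskeleton, and it differed from the other genes in where HFD-CO stood. It had 8.19, 8.21, 8.05 and 8.23 in the HFD-ED mice, 8.22, 8.04, 8.13 and 8.36 in the HFD-CO mice, and 8.25, 8.46, 8.30 and 8.32 in the control mice. All HFD-ED mice were below all control mice, and 3 of the 4 HFD-CO mice were too. HFD-ED averaged 8.17 ± 0.082, HFD-CO 8.18 ± 0.14 and control 8.33 ± 0.089 (SD, n = 4 each). HFD-ED minus control was -0.16 (SE 0.069, adjusted p = 0.455, exact permutation p = 0.0286), HFD-CO minus control was -0.15 (SE 0.069, exact permutation p = 0.171), and HFD-ED minus HFD-CO was -0.01 (SE 0.069, adjusted p = 0.974). A second Lcp2 probe gave smaller differences of the same sign, -0.04, -0.02 and -0.01 in the same 3 comparisons, and there the HFD-ED and control mice overlapped.

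Counted together, 7 of the 8 genes had a lower mean in HFD-ED than in control mice, with a median difference of -0.24, and 52.8% of all probes had a difference below 0 in that comparison. Among the 11242 probes with a mean of 7.5 or more, where all 8 genes lie, that share was 58.8% and the median difference was -0.03. In HFD-ED against HFD-CO, 8 of the 8 genes had a lower mean, with a median of -0.24, against 52.4% of all probes and 57.9% of the brighter ones. These 2 comparisons share the HFD-ED mice. In HFD-CO against control, 3 of the 8 genes had a lower mean, with a median of 0.03, against 50.8% of all probes.

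By limma with adjustment over all probes, 0 of the 8 genes were called at 0.05 in each comparison, and hence 0 at the 0.001 of the study's methods. Of all probes, 0% were called in HFD-ED against control, 0.00221% in HFD-ED against HFD-CO and 0% in HFD-CO against control. The paper itself reports genes past 0.001 with each high-fat diet against control. Why its counts differ from these was not tested. At an unadjusted p under 0.05, 3 genes were lower in HFD-ED than in control mice (Rasgrp1, Cd3g and Lcp2), against 5.67% of all probes and 13.8% of the brighter ones. In HFD-ED against HFD-CO there were 3 such genes (Rasgrp1, Cd3g and Cd3d), against 4.70% and 10.4%, and in HFD-CO against control there were 0, against 2.44% and 3.82%. The diets did not overlap in 2 genes in HFD-ED against control (Rasgrp1 and Lcp2), with 2.85% of all probes and 5.60% of the brighter ones lower without overlap. The second Lcp2 probe, with means of 8.12 in HFD-ED and 8.15 in control mice, did overlap. In HFD-ED against HFD-CO the diets did not overlap in 2 genes (Rasgrp1 and Cd3g), with 2.24% and 3.96%. In HFD-CO against control all 8 genes overlapped, with 1.57% of all probes and 2.07% of the brighter ones lower without overlap.

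**Figure D2:**
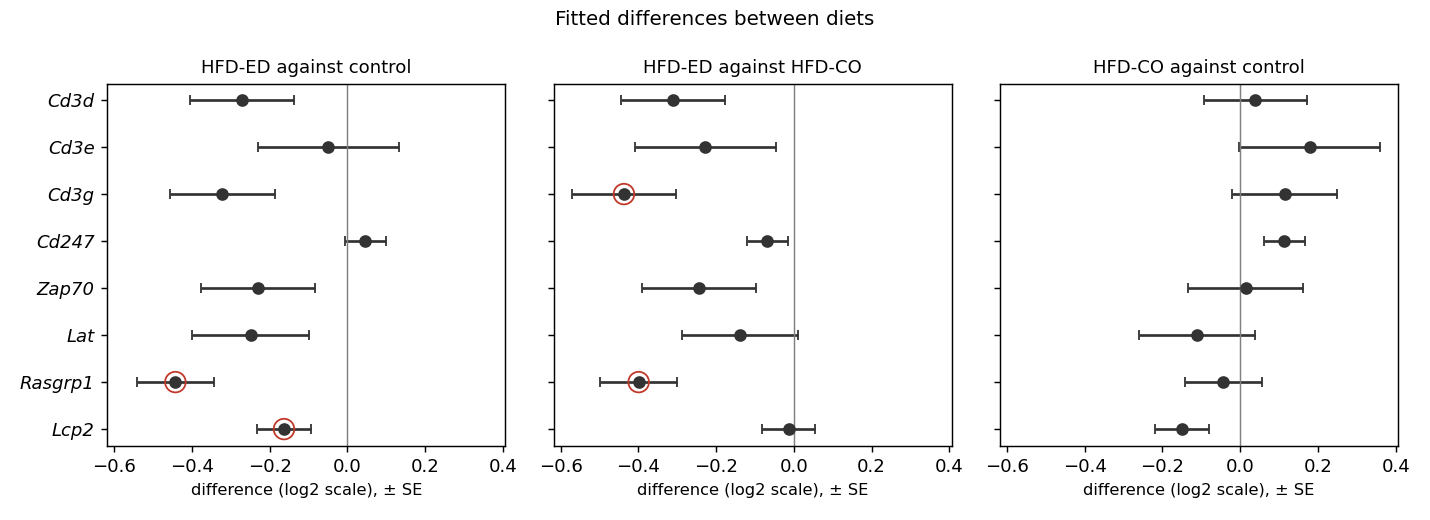
Fitted difference of each gene (log2 scale) in the 3 comparisons, first diet minus second, with 1 SE either way. Red rings mark genes whose mice do not overlap between the diets: Rasgrp1 and Lcp2 in HFD-ED against control, at -0.44 and -0.16, and Cd3g and Rasgrp1 in HFD-ED against HFD-CO, at -0.44 and -0.40.

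The differences were spread unevenly over the HFD-ED mice. HFD-ED mouse 3 was the lowest of the 12 mice in 6 of the 8 genes and below the 12-mouse mean in all 8, with a mean deviation of -0.49. HFD-ED mice 1, 2 and 4 had mean deviations of 0.02, -0.02 and -0.11. The HFD-CO mice had mean deviations of 0.09, 0.09, -0.01 and 0.17, and the control mice had -0.02, 0.09, 0.07 and 0.12. HFD-ED mouse 1 thus lay within the range of both other diets over the 8 genes together, although its Rasgrp1 level was below all of their mice. Mouse 3 was also the lowest mouse in 26.6% of the 11242 brighter probes. Without it, 6 of the 8 genes had a lower mean in HFD-ED than in control mice, with Cd3e and Cd247 higher. Against HFD-CO 6 were lower too, but there Lat and Lcp2 were the higher ones. The medians without mouse 3 were -0.10 against control and -0.05 against HFD-CO.

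**Figure D3:**
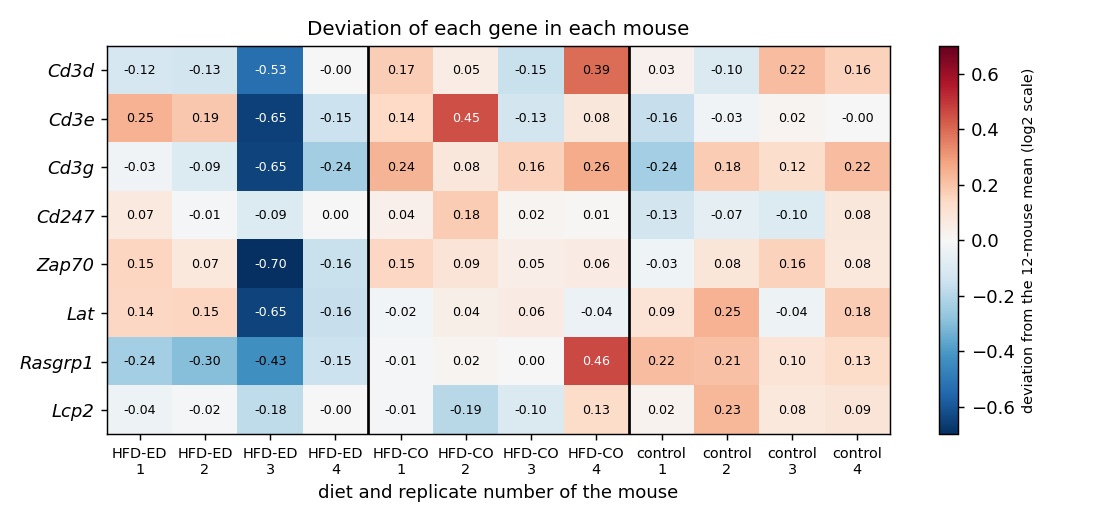
Deviation of each gene from its 12-mouse mean (log2 scale) in every mouse, with blue below and red above. Columns run from the HFD-ED to the HFD-CO and control mice. HFD-ED mouse 3 is below the mean in all 8 genes, and Rasgrp1 is below the mean in all 4 HFD-ED mice, from -0.43 to -0.15.

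Markers of spleen cell types were set beside the genes, as the mean deviation of each list in each mouse. T-cell identity genes, 27 of 29 measured, had 0.09, 0.003, -0.31 and -0.08 in the HFD-ED mice, -0.02 to 0.07 in the HFD-CO mice and 0.01 to 0.05 in the control mice. Again HFD-ED mouse 3 was the lowest of the 12 mice, and HFD-ED mouse 1 was the highest. Of these 27 genes, 22 had a lower mean in HFD-ED than in control mice (median -0.05) and 21 a lower mean than in HFD-CO mice (median -0.08), with 0 called and 4 at an unadjusted p under 0.05 in each. Their differences ran from -0.45 to 0.07 against control and from -0.39 to 0.19 against HFD-CO. Of all probes, 52.8% and 52.4% had a difference below 0 in these comparisons, and 5.67% and 4.7% were lower at an unadjusted p under 0.05. Among the brighter probes, 58.8% and 57.9% had a difference below 0, and 13.8% and 10.4% were lower at that p. The probes of Cd4, Cd5 and Cd8a lay near the lower end of the scale, at means of 7.21, 7.10 and 7.09 in HFD-ED mice, and say little about these markers.

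Taken relative to the T-cell identity mean of the same mouse, Rasgrp1 had -0.33 to -0.08 in the HFD-ED mice, -0.05 to 0.39 in the HFD-CO mice and 0.08 to 0.17 in the control mice. The HFD-ED mice did not overlap the others on this scale, although the gap to HFD-CO was narrow, with the nearest mice at -0.076 and -0.053. Cd3g had -0.34 to -0.10 in the HFD-ED mice, 0.01 to 0.20 in the HFD-CO mice and -0.28 to 0.20 in the control mice, so that it overlapped control but not HFD-CO. Lcp2 had -0.13 to 0.13 in the HFD-ED mice, -0.27 to 0.05 in the HFD-CO mice and -0.02 to 0.18 in the control mice, and here the HFD-ED and control mice overlapped. The T-cell identity mean includes dim probes such as those of Cd4, Cd5 and Cd8a, where differences are compressed. It can therefore move less than a bright gene for the same change in T cells. The relative values are descriptions with no test.

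Other cell types differed between the same mice. The erythroid list, 30 of 36 genes measured, had -0.52, 0.83, 1.39 and 0.72 in the HFD-ED mice, -0.70 to 0.32 in the HFD-CO mice and -0.65 to 0.22 in the control mice, with 30 of 30 means higher in HFD-ED than in control mice, 18 at an unadjusted p under 0.05 and 0 called. The neutrophil list, 18 of 20 measured, had -0.21, 0.51, 1.57 and 0.33 in the HFD-ED mice, -0.61 to -0.24 in the HFD-CO mice and -0.51 to 0.19 in the control mice, with 18 of 18 means higher in HFD-ED than in control mice, 4 at an unadjusted p under 0.05 and 0 called. Both lists were highest in HFD-ED mouse 3, the mouse with the lowest T-cell receptor genes. In HFD-ED against control, 21382 of the 45281 probes had a higher mean, 2054 of them at an unadjusted p under 0.05. Among the 11242 brighter probes these counts were 4632 and 1112. The megakaryocyte list, 18 of 20 measured, had 0.03 to 0.56 in the HFD-ED mice, -0.23 to -0.13 in the HFD-CO mice and -0.12 to -0.05 in the control mice, so that all HFD-ED mice were above all others. The share of all probes that were higher without overlap was not counted. The natural killer cell list, 20 of 21 measured, had -0.15 to -0.04 in the HFD-ED mice, -0.05 to 0.06 in the HFD-CO mice and 0.003 to 0.13 in the control mice, and 18 of the 20 genes had a lower mean in HFD-ED than in control mice (7 at an unadjusted p under 0.05, 0 called). The B-cell list, 20 of 22 measured, had -0.31 to 0.09 in the HFD-ED mice, -0.01 to 0.11 in the HFD-CO mice and -0.02 to 0.14 in the control mice, and 16 of the 20 genes had a lower mean in HFD-ED than in control mice (4 at an unadjusted p under 0.05, 0 called). Of all probes, 52.8% had a lower mean in that comparison and 5.67% were lower at that p. Of the brighter ones, these shares were 58.8% and 13.8%.

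No probe has a true 0 on this scale, so that no marker could be called absent. The part of these cell types in the differences was not tested. HFD-CO mouse 4, which had the highest Rasgrp1 level, also had the highest mean of the pancreatic acinar list, at 4.85, and the part of that tissue in its Rasgrp1 level was not tested.

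**Figure D4:**
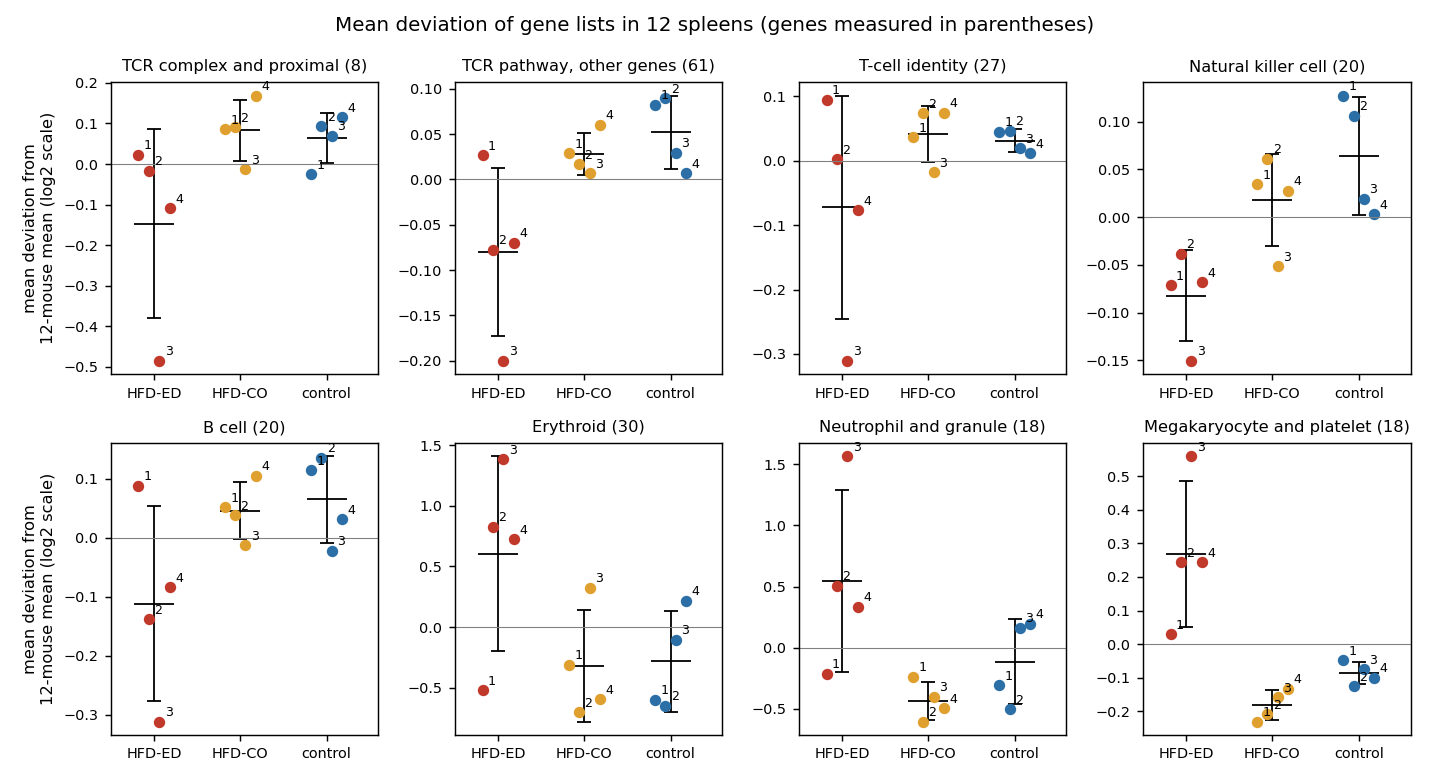
Mean deviation from the 12-mouse mean (log2 scale) of 8 gene lists in each mouse, with HFD-ED, HFD-CO and control from left to right. Points are mice with their replicate numbers, the line is the mean and the bar is 1 SD (n = 4 mice), and the vertical scale differs between panels. HFD-ED mouse 3 is lowest for the T-cell receptor genes (-0.49) and highest for the erythroid (1.39) and neutrophil (1.57) lists.

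The other genes of the T-cell receptor pathway, from receptor chains and costimulators to phosphatases, calcium signaling and transcription factors, were 78 in number, with 61 measured. In HFD-ED against control, 48 had a lower and 13 a higher mean, with a median of -0.11. In HFD-ED against HFD-CO, 53 had a lower and 8 a higher mean, with a median of -0.09, and in HFD-CO against control 32 had a lower and 29 a higher mean, with a median of -0.0032. Of all probes, 52.8%, 52.4% and 50.8% had a difference below 0 in these comparisons, and 58.8%, 57.9% and 52.7% of the brighter ones. None of the 61 was called by limma in any of the 3 comparisons (0 each), and at an unadjusted p under 0.05 there were 14 lower and 1 higher in HFD-ED against control, 14 lower and 1 higher in HFD-ED against HFD-CO, and 4 lower and 1 higher in HFD-CO against control. Of all probes, 5.67%, 4.7% and 2.44% were lower at that p in the same order, and 13.8%, 10.4% and 3.82% of the brighter ones. Fyb, Prkcq and Itpr3, described next, had the smallest p among the lower genes in HFD-ED against control. Their separation from control follows in part from that choice. Of all probes, 2.85%, 2.24% and 1.57% were lower without overlap in the 3 comparisons, and 5.60%, 3.96% and 2.07% of the brighter ones.

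Fyb encodes ADAP, an adaptor that binds SLP-76 and acts on integrins. It had 9.86, 9.59, 9.50 and 9.57 in the HFD-ED mice, 9.82, 9.78, 9.85 and 9.90 in the HFD-CO mice, and 10.06, 10.14, 10.11 and 9.97 in the control mice. The HFD-ED and HFD-CO mice all lay below the control mice, and HFD-ED mouse 1 lay among the HFD-CO mice. HFD-ED minus control was -0.44 (SE 0.068, adjusted p = 0.193) and HFD-ED minus HFD-CO was -0.21 (SE 0.068, adjusted p = 0.456). HFD-CO minus control was -0.23 (SE 0.068), and was not called. Without HFD-ED mouse 1, Fyb was called in HFD-ED against control (-0.51, adjusted p = 0.00773), as was Nfatc1, an NFAT transcription factor (-0.42, adjusted p = 0.0366, against -0.29 and 0.410 with all mice), which is named because of that call. Over all probes, 0.192% were called in this setting, against 0% with all mice.

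Prkcq encodes protein kinase C theta, which acts on NF-κB signaling below the receptor. It had 7.70, 7.64, 7.69 and 7.77 in the HFD-ED mice, 7.83, 7.83, 7.81 and 7.82 in the HFD-CO mice, and 7.83, 7.83, 7.88 and 7.83 in the control mice. All 4 HFD-ED mice were below the mice of both other diets, by a small margin at a dim level. The difference was -0.14 against control (SE 0.024, adjusted p = 0.193) and -0.13 against HFD-CO (SE 0.024, adjusted p = 0.330).

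Itpr3 encodes a receptor that releases calcium from internal stores. It ranged from 8.15 to 8.43 in the HFD-ED mice, 8.41 to 8.59 in the HFD-CO mice and 8.47 to 8.83 in the control mice, and HFD-ED minus control was -0.33 (SE 0.082, adjusted p = 0.270). The HFD-ED and control mice did not overlap, and the HFD-ED and HFD-CO mice did. In the other direction, the genes with the smallest p were Txk, Pag1 and Ubash3a, with differences of 0.04, 0.04 and 0.02 against control at levels close to the lower end of the scale.

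**Figure D5:**
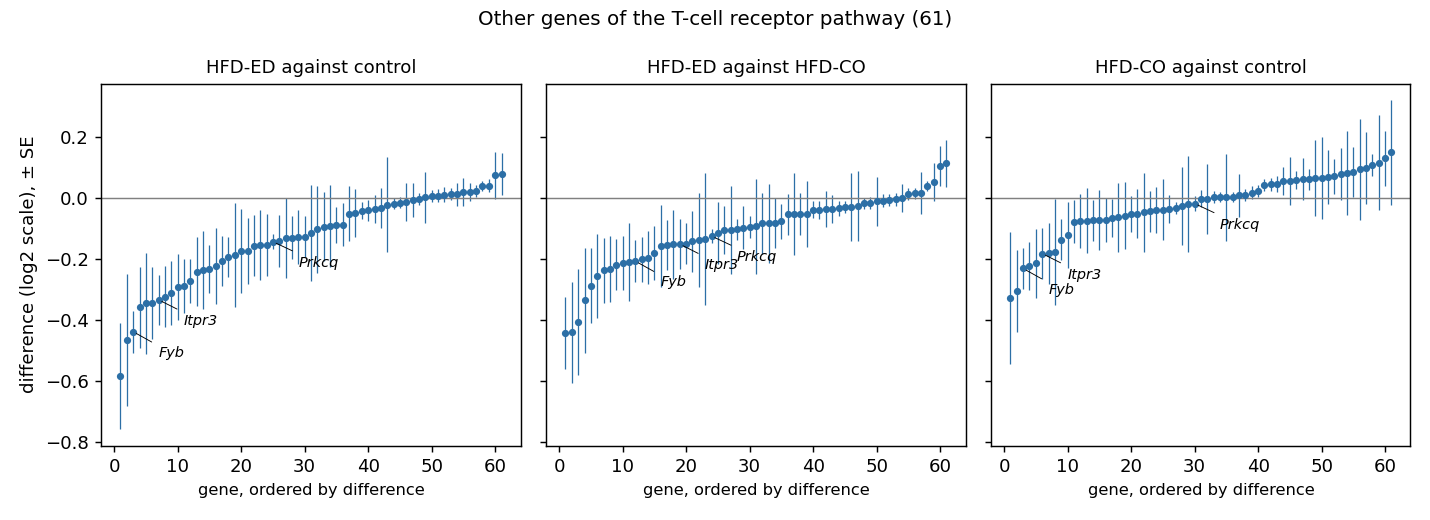
Fitted differences of the 61 other genes of the pathway (log2 scale, first diet minus second, with 1 SE either way), ordered from lowest to highest in each comparison. Most points lie below 0 in HFD-ED against control (48 of 61) and in HFD-ED against HFD-CO (53 of 61), against 32 of 61 in HFD-CO against control. Of all probes, 52.8%, 52.4% and 50.8% had a difference below 0 in the same order.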

How the data were processed

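GenomeStudio gave the bead intensities. The authors deposited values transformed and quantile normalized by lumiExpresso of lumi (version 2.18.0 in the submitters' processing notes), on a log2 scale, which were used as they stand. No detection p-values were used. Of the 45281 probes, 34885 carried 1 gene symbol, 18 several and 10378 none in the platform annotation, and older symbols were matched through RefSeq. Promoter sequences come from RefSeq (GRCm38.p6). The search for tyrosine motifs in the CD3 proteins was not run.

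A model with a mean per diet was fitted over all 12 arrays with limma 3.58.1 in R 4.3.3 (eBayes, two-sided), and p-values were adjusted over all probes by Benjamini-Hochberg. Exact permutation tests used scipy 1.17.1. The fit was tested on simulated data. Members and gene lists were chosen with earlier results of these data known. Named genes were the members, the 3 other pathway genes with the smallest p in each direction in HFD-ED against control, and the 6 genes most alike in pattern. Cd4, Cd5 and Cd8a were added as defining T-cell markers, and Nfatc1 after its values were seen. Alternatives were a replicate block, other variance models, array weights, a filter on dim probes (mean under 7.5), median centring, cyclic loess, other probe choices, other adjustments, a fit of only the diets compared and leaving out each mouse. The limma p-values set a difference between diet means against the spread between mice within diets. That spread is pooled over the 3 diets and moderated across probes.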

Additional observations from a re-analysis of the deposited data

Results flagged for a closer look

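Of 24 groups of 4 mice (8 genes in 3 diets), 1 had a mouse far from the others: Rasgrp1 was 11.52 in HFD-CO mouse 4, against 11.05 to 11.08 in the other HFD-CO mice, with a gap of 0.935 of the group's range. Chance sets a mouse apart in about 1 in 20 groups. Without this mouse, Rasgrp1 had an adjusted p of 0.0775 in HFD-ED against control, within a range of 0.0775 to 0.511 over all alternatives (limma). The mouse is not in that comparison: the difference stayed -0.44, and the SE, shared by the diets, fell from 0.099 to 0.052. In HFD-ED against HFD-CO, the difference shrank from -0.40 to -0.29 without this mouse. The adjusted p there rose from 0.345 to 0.490 (limma).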

How the results depend on the processing

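No member was called under any alternative in any of the 3 comparisons, and the smallest adjusted p over all of them was 0.0775 (Rasgrp1, HFD-ED against control). Leaving out each mouse moved the median of the 8 genes between -0.31 and -0.10 in HFD-ED against control (-0.0995 without HFD-ED mouse 3) and between -0.34 and -0.05 in HFD-ED against HFD-CO (-0.0526 without HFD-ED mouse 3). In HFD-CO against control, the median of 0.03 moved between -0.015 and 0.075, and was below 0 without HFD-CO mouse 4 (-0.015), control mouse 1 (-0.0042) or control mouse 2 (-0.0011). Averaging all probes of a gene gave medians of -0.14 and -0.18 and Rasgrp1 differences of -0.20 in both, since the dimmer probes then count equally. Of the 61 other pathway genes, 0 to 2 were called in HFD-ED against control when a mouse was left out, the 2 being Fyb (-0.51, adjusted p = 0.00773) and Nfatc1 (-0.42, adjusted p = 0.0366) without HFD-ED mouse 1, where 87 of all 45281 probes were called, against 0 with all mice. Without HFD-ED mouse 3 the sign turned for Cd3e in HFD-ED against control (0.14, range without a mouse -0.16 to 0.14) and, in the comparison of HFD-ED and HFD-CO, for Lat (0.034, range -0.23 to 0.034) and Lcp2 (0.027, range -0.063 to 0.044). Lcp2 also turned there with array weights (0.0030) and without HFD-CO mouse 4 (0.044). In HFD-CO against control the sign turned for Rasgrp1 with all probes averaged (0.00033), for Zap70 without control mouse 1 (-0.020) or HFD-CO mouse 1 (-0.0059, range -0.020 to 0.044), and for Cd3d without control mouse 2 (-0.020) or HFD-CO mouse 4 (-0.053, range -0.053 to 0.13). The cause was not tested. Replicate numbers were not taken to pair the mice. Of 12 same-numbered pairs, 4 had deviations correlated above 0.1, and the pairs of replicate 3 had 0.371, 0.156 and 0.162. This check cannot settle whether the numbers link mice, as the pairs are few. With the replicate block 0 members were called, with an adjusted p of 0.178 for Rasgrp1 in HFD-ED against control and of 0.247 in HFD-ED against HFD-CO (limma).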

Other observations

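Among 7006 genes with a mean of 7.5 or more, the 6 most alike to the mean of the 8 genes over the 12 mice were, by Pearson's r, LOC100041504 (0.97), Inpp5d (0.96), Tex264 (0.95), Cnp (0.94), Ccl21a (0.94) and Map4k1 (0.94). Spearman's rho was 0.64, 0.94, 0.71, 0.69, 0.56 and 0.75 in the same order, and r without HFD-ED mouse 3 was 0.85, 0.85, 0.79, 0.72, 0.65 and 0.62. Inpp5d encodes SHIP-1, a lipid phosphatase of blood cells, and Map4k1 encodes HPK1, a kinase that acts on SLP-76 and is on the pathway list. Ccl21a, a chemokine of the T-cell zone, has near-identical copies in the mouse genome. The genes were picked for their r, so that no test was made.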
